A study of Mus musculus with 2 samples.

Results

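Bone morphogenetic protein (BMP) signals were followed through the growing hair follicle by 10 genes that cover the source of the signal, its receptor, its modulators and its response. They are the ligands Bmp2, Bmp4, Bmp7 and Bmp8a, the receptor Bmpr1a, the modulators Bmper and Bambi, and the target genes Id1, Id2 and Id3. They were chosen by symbol, and all 10 were found among the 32285 genes listed in the data. Single-cell RNA sequencing was done on tdTomato-positive epithelial cells that had been sorted from mouse back skin at postnatal day 1, after the epidermis had been peeled off to enrich for growing follicles. One library came from mice labelled WT, here called PADI4 WT, and the second, of the same batch by the labels, from mice labelled PADI4 cKO. All mice were K14-Cre with the tdTomato Ai14 reporter, and the PADI4 cKO mice also carried Padi4 fl/fl, so that Cre from the keratin 14 promoter removes Padi4, which encodes an arginine-citrullinating enzyme, in skin epithelium. The sources used here give neither how many animals went into a library nor the sex of the mice. With 1 library per genotype there is no replicate check, no test was made, and a difference between the libraries is not shown to be a difference between the genotypes.

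BMP ligands are secreted dimers that bring type I and type II receptors together, and the type I receptor then phosphorylates Smad1 and Smad5, which enter the nucleus with Smad4 and switch on target genes such as the Id genes. Secreted binding proteins and a membrane pseudoreceptor limit or move the signal, and some of them are themselves targets of it. In hair follicles the pathway is known for holding stem cells at rest, for the choice between proliferation and differentiation in the hair bulb and for the formation of the hair shaft and the inner root sheath.

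The libraries held 143938990 and 143945294 unique molecular identifiers (UMIs), of which 127233037 and 129460781 lay in 7994 and 7357 epithelial cells that passed the filters. Here and below, pairs of values give the PADI4 WT library first and the library labelled PADI4 cKO second. Padi4 itself was counted 98 and 92 times, a level of 0.770 and 0.711 CPM (UMIs of a gene scaled to 1000000 UMIs of all genes), a log2 ratio of −0.12 (95% interval −0.54 to 0.31). It therefore did not set the libraries apart, and the second is named by its label throughout. Cells with Y-linked and no Xist UMIs made up 62.4% of the PADI4 WT cells and 0% of the others, 98.3% of which had Xist UMIs alone, so the libraries differ in sex as well as in label. Of the cell barcodes, 14 occurred in both libraries. Markers of dermal papilla, the mesenchymal niche of the bulb, summed to 0.448 and 0.386 CPM in the epithelial cells and those of fibroblasts to 8.0 and 7.71 CPM. Of the remaining lists of other cell types, Schwann cell markers summed to 45.6 and 39.8 CPM, melanocyte markers to 17.8 and 20.0 CPM, with most in Med-like cells (55.9 and 72.8 CPM), Merkel cell markers to 6.41 and 8.11 CPM, and endothelial, immune and mural markers to 1.28 CPM or less each.

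Cells were clustered without BMP pathway genes, and comparisons were made over the 15 groups for which each library held 50 cells or more. A group was named after a cell type only where its markers allowed it. LPC-like stands for the lower proximal cup at the base of the bulb, Myb GL-like and Slit3 GL-like for germinative layer cells led by these genes, Med-like for the medulla, Cx-like for the cortex, IRS-like for the inner root sheath and CL-like for the companion layer. Pi15 ORS-like and Col4a3 ORS-like are outer root sheath groups, and IFE-like and SG-like stand for interfollicular epidermis and sebaceous gland. Shh, Tagln, Brinp1 and Aldh3a1 clusters are named by a leading gene. Some named groups also raised markers of other lists. Slit3 GL-like cells raised 4 GL, 3 LPC and 2 ORS markers, and LPC-like cells 4 LPC and 3 GL markers. At a finer clustering (Leiden resolution 2.0), a cluster with Slit3 among its leading genes was named LPC. In the Shh cluster, 2 markers each of the LPC, GL and IRS lists were raised, and in the Brinp1 cluster 4 each of the ORS and LPC lists. The Aldh3a1 cluster raised 5 markers of the upper hair follicle, 4 of the ORS and 3 of the SG list, but its leading genes held the SG marker Pparg and no upper follicle marker, so it was given no cell type, and the Tagln cluster raised 2 ORS markers. Levels are CPM over the UMIs of a group, and intervals around them are exact 95% intervals for counting error only. As only 3′ ends were counted, CPM values are compared between groups and libraries, not between genes.

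The gene positions are in mm10. Short DNA stretches bound by Smad proteins were sought in the 250 bases before the start of each member in the promoters of RefSeq (GRCm38.p6), which held 6 of the 10 members. The letters were GGCGCC, a GC-rich element bound by Smad1 and Smad5, and CAGAC, which contains the 4 bases of the Smad box, on both strands. They are shown because Smad binding is the step between receptor and target. Capitals mark the match, and each stretch is written 5′ to 3′ on the strand of its gene.
Id3, chr4:136143645-136143669, + strand, annotated as UTR: tcctcggcgtCAGACcagcctaagg
Id3, chr4:136143744-136143768, + strand, annotated as UTR: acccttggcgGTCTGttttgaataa
Id2, chr12:25096308-25096333, - strand, inside an intron in GENCODE: aggccccctgGGCGCCcagcgcacac
Bmpr1a, chr14:34502729-34502754, - strand, inside an intron in GENCODE: cgcgcgcgccGGCGCCtcttgctcgc
Bmp8a, chr4:123343370-123343394, - strand, upstream of the gene: tgaagaagaaGTCTGgagcggagga
No match was found for Bmp4 and Bmper. Of 32851 promoters, 9.59% held GGCGCC and 42.2% held CAGAC, so that either is found widely, and a match is a description of the letters, not a binding site.

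The ligands Bmp2 and Bmp4 were concentrated in the same groups, namely the Shh cluster, LPC-like and Med-like cells. Bmp2 (chr2:133552159-133562885) was highest in the Shh cluster, at 154 CPM (144 to 166) and 176 CPM (165 to 188). It stood at 100.2 and 99.1 CPM in LPC-like and at 91.2 and 104 CPM in Med-like cells, neighbors in the order that were not apart in both libraries. These groups held 75.4% and 84.6% of all Bmp2 UMIs in 18.7% and 21.6% of the epithelial cells. Below them came a drop to 23.5 and 25.4 CPM in Cx-like cells, while IFE-like cells stood at 38.0 and 12.7 CPM. The remaining groups were at 13.7 CPM or less. Over all epithelial cells of a library, free RNA could give at most 1.66 and 1.86 CPM of Bmp2, and no limit was made for single groups. In Slit3 GL-like cells, at 3.04 and 1.75 CPM, the level was above this library-wide limit in the PADI4 WT library only. In the Tagln cluster, at 0.190 and 4.48 CPM, it was above it in the other library only.

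Bmp4 (chr14:46383520-46390669), a ligand also made by dermal cells in skin, reached 160 and 187 CPM in the Shh cluster and 148 and 166 CPM in Med-like cells. LPC-like cells had 105.5 and 105 CPM, and the top groups together held 61.2% and 64.4% of the Bmp4 UMIs. Unlike Bmp2, Bmp4 extended down a graded order through Cx-like (73.9 and 81.9 CPM), Myb GL-like (52.9 and 64.3 CPM) and IRS-like cells (42.2 and 39.6 CPM), each apart from the next in both libraries. From the Aldh3a1 cluster, at 19.5 and 18.9 CPM, downward no neighbors could be set apart, and the Tagln cluster was again low, at 1.90 and 8.10 CPM. Over all epithelial cells, free RNA could give at most 2.97 and 2.90 CPM of Bmp4.

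Both ligands were often found in a single cell. In the Shh cluster, 67.0% and 75.9% of cells had UMIs of both, in Med-like cells 49.9% and 60.2%, and in LPC-like cells 36.8% and 42.1%. Bmp2 was detected in 60.1% and 68.6% of Med-like cells with Bmp4 but in 44.1% and 46.2% of those without, and in 56.4% and 59.7% against 32.2% and 23.2% of LPC-like cells. Such shares rise with the UMIs of a cell. Thinned to 2000 UMIs per cell, Bmp2 was detected in 22.1% and 27.3% of Shh cluster cells, against 77.6% and 84.3% before thinning, and in 0% of the Tagln cluster cells, of which 0.313% and 2.79% were positive before.

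Bmp7 (chr2:172868012-172940321) was broader, with a ratio of 6.18 and 5.51 between the highest and the lowest group. LPC-like cells led with 159 and 168 CPM, apart from the Aldh3a1 cluster at 121 and 135 CPM and Cx-like cells at 111 and 116 CPM. IFE-like cells had 96.9 and 120.0 CPM. At the low end were the Tagln cluster, SG-like cells and Pi15 ORS-like cells, the last at 27.8 and 30.5 CPM. In the Aldh3a1 cluster, high in Bmp7, Bmp2 stood at 9.14 and 6.46 CPM. The top 3 groups held 36.1% and 37.7% of the Bmp7 UMIs.

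Bmp8a (chr4:123312645-123343252), a less studied ligand of the family, was rare, with 236 and 191 UMIs in all. Cx-like cells held 27.5 CPM (22.7 to 32.9) and 18.5 CPM (14.3 to 23.5) and were apart from IRS-like cells at 4.00 and 4.75 CPM. Every other compared group was near 1 CPM or below. A small group with 6 inner root sheath markers that was led by Crym, with 14 and 7 cells, had 165 and 281 CPM and held 13.6% and 17.8% of all Bmp8a UMIs, but lay below the minimum of cells for a comparison.

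**Figure D1:**
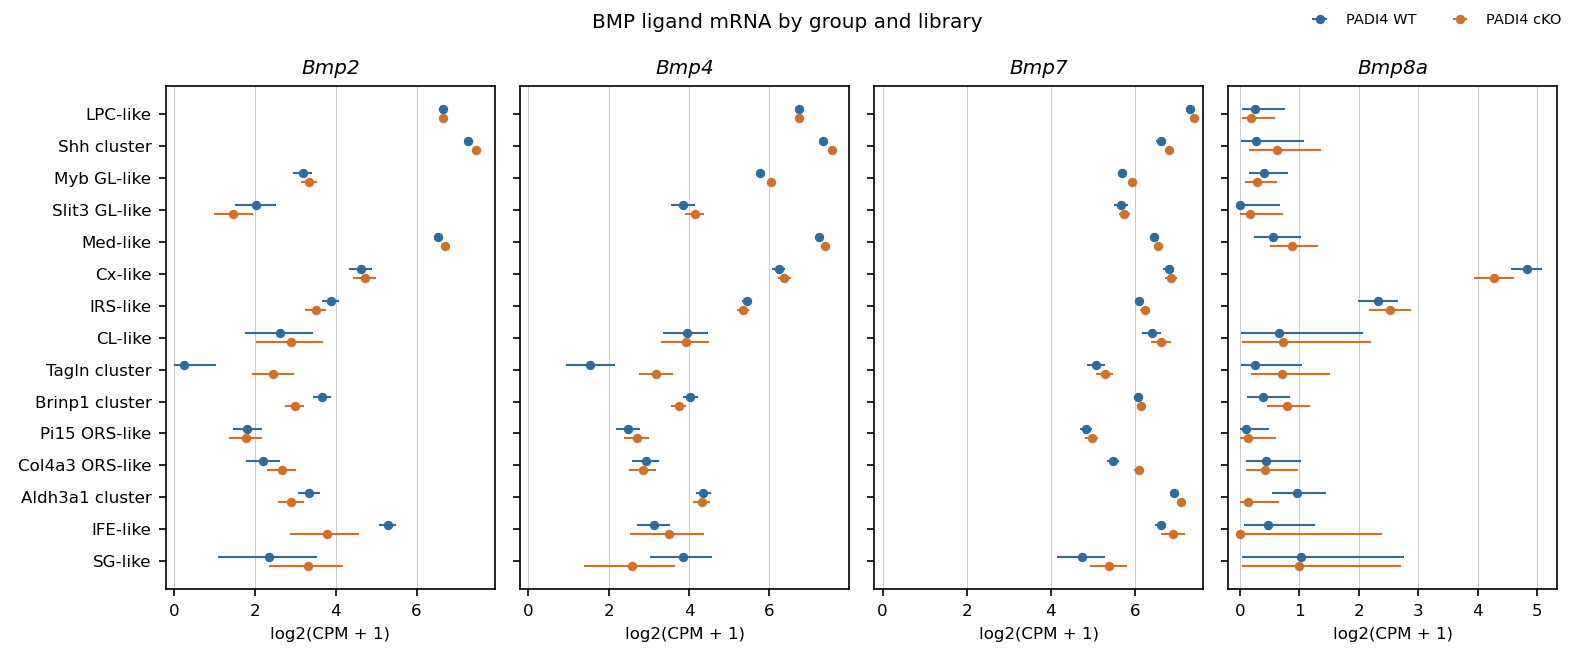
Levels of the ligand genes, as log2(CPM + 1) on the horizontal axes, in the 15 groups on the vertical axis, with the PADI4 WT library in blue and the library labelled PADI4 cKO in orange. Points are summed UMIs of a group and bars exact 95% intervals for counting. Bmp2 and Bmp4 share their peaks in the Shh cluster, LPC-like and Med-like cells, Bmp7 is broad, and Bmp8a stands above 20 CPM only in Cx-like cells of the PADI4 WT library.

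The receptor gene Bmpr1a (chr14:34410734-34503341), whose product is a type I receptor for BMP2 and BMP4, was present nearly evenly. It was detected in 88.9% and 91.1% of epithelial cells, and its level over all of them was 216 and 220 CPM. Group levels ran from 188 and 195 CPM in IFE-like cells to 262 and 304 CPM in CL-like cells, a ratio of 1.40 and 1.56, and no group was apart from its neighbor in the order in both libraries. The groups with the most ligand mRNA had no more of it than others. Bmpr1a stood at 211 and 203 CPM in the Shh cluster and at 241 and 245 CPM in the Tagln cluster.

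Bmper (chr9:23223076-23485200), a secreted protein that binds BMPs outside the cell, was concentrated in few groups. Its levels were 106 and 96.5 CPM in Cx-like, 110.0 and 92.1 CPM in Med-like and 106 and 62.1 CPM in CL-like cells. These groups held 84.2% and 82.2% of its UMIs in 13.4% and 13.0% of the cells. Slit3 GL-like cells came next with 16.6 and 11.3 CPM, followed by the Tagln cluster with 15.0 and 10.0 CPM. LPC-like cells, rich in ligand, had 1.79 and 1.86 CPM, near the 1.22 and 0.994 CPM that free RNA could give over all epithelial cells.

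Bambi (chr18:3507923-3516404) encodes a pseudoreceptor that lacks the kinase domain of the type I receptors and damps the signal. It was highest in Cx-like cells, at 169 and 158 CPM, and in Med-like cells, at 164 and 133 CPM, which were not apart. It then descended through the Shh cluster (55.6 and 68.4 CPM) and IRS-like cells (46.8 and 47.2 CPM) to 21.8 CPM and less in the PADI4 WT library and 26.8 CPM and less in the other. Cx-like and Med-like cells were therefore high in both modulators, CL-like cells in Bmper alone, with 7.45 and 5.82 CPM of Bambi.

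**Figure D2:**
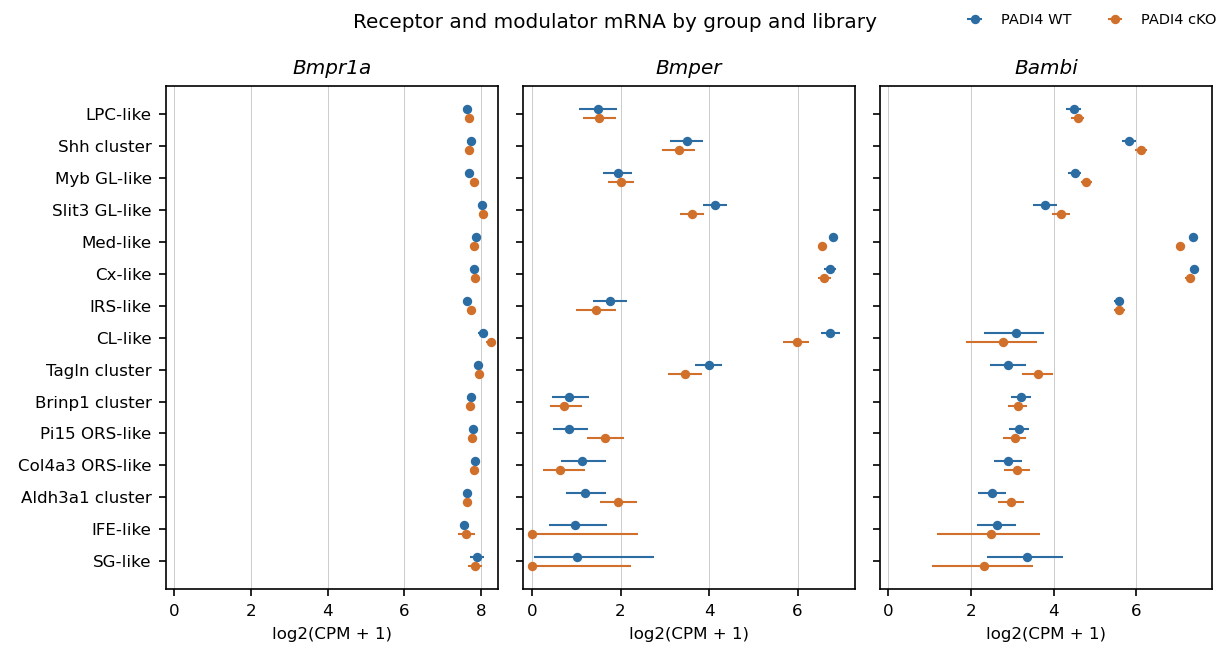
Levels of Bmpr1a, Bmper and Bambi as log2(CPM + 1) in the 15 groups, colored by library as in the ligand plot, with exact 95% intervals for counting. Bmpr1a lies between 188 and 304 CPM in every group, while Bmper stands out in the Med-like, Cx-like and CL-like cells and Bambi in the Cx-like and Med-like cells.

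The Id genes encode helix-loop-helix proteins without a DNA-binding domain, which hold back other transcription factors of their class and are a common readout of BMP signals. Id1 (chr2:152736251-152737410) was high in 5 groups, at 313 and 283 CPM in the Tagln cluster, 265 and 292 CPM in Med-like, 258 and 282 CPM in Slit3 GL-like, 248 and 283 CPM in Cx-like and 225 and 246 CPM in CL-like cells. None of these was apart from the next, and the last was apart from the Shh cluster at 133 and 197 CPM. The lowest level was that of Col4a3 ORS-like cells, at 22.3 and 53.0 CPM. Over all epithelial cells free RNA could give at most 11.9 and 12.6 CPM of Id1, but no limit was made for this group. Its median UMI count was 8824.5 and 10150.5, against 14683.5 and 16205.0 in all epithelial cells.

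Id3 (chr4:136143497-136145755) followed a similar order, with Pearson's r of 0.85 and 0.84 to Id1 over the 15 groups, a description over groups that share a library and its depth. It reached 567 and 564 CPM in the Tagln cluster and 494 and 552 CPM in Slit3 GL-like cells. IRS-like cells were high in Id3, at 429 and 420 CPM, and not in Id1, at 89.4 and 106 CPM. Col4a3 ORS-like cells had 32.6 and 61.2 CPM and SG-like cells 72.1 and 31 CPM.

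Id2 (chr12:25093799-25097140) had an order of its own. Cx-like cells led with 323 and 288 CPM, apart from Med-like cells with 182 and 185 CPM, which were apart from SG-like cells with 127 and 99 CPM. The Tagln cluster, at the top for Id1 and Id3 in the PADI4 WT library, had 55.0 and 48.2 CPM of Id2. Its lowest levels were 11.5 and 14.2 CPM in Col4a3 ORS-like cells and 18.9 and 9.23 CPM in IFE-like cells.

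**Figure D3:**
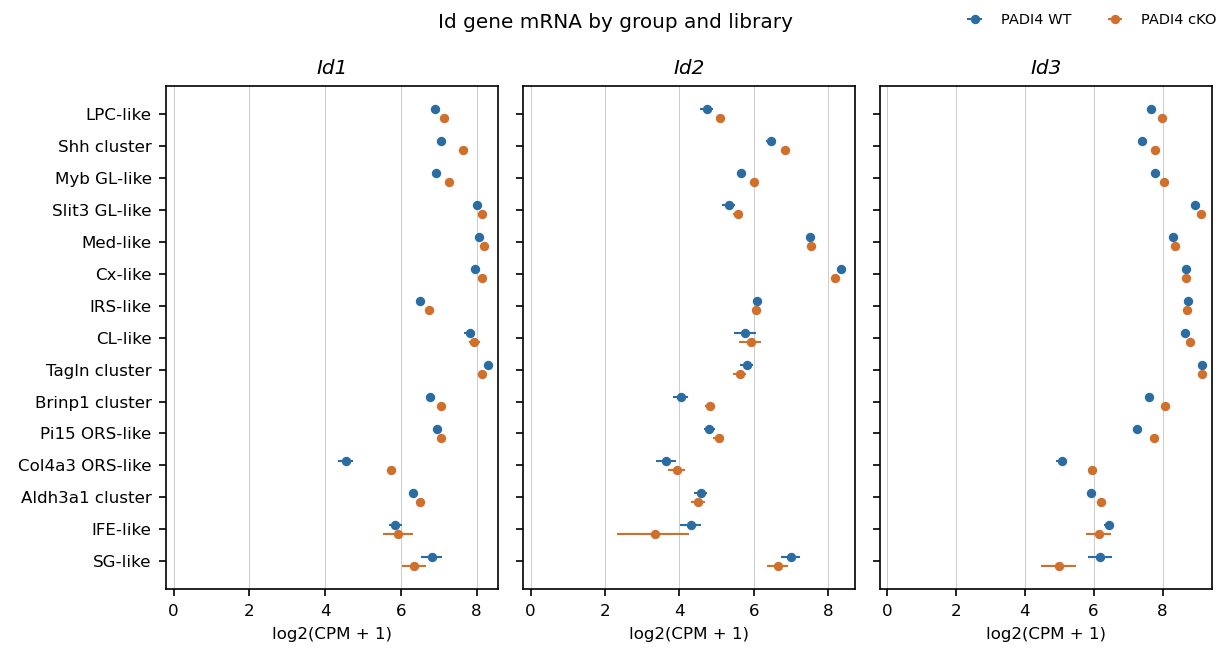
Levels of Id1, Id2 and Id3 as log2(CPM + 1) in the 15 groups, colored by library as in the ligand plot, with exact 95% intervals for counting. Id1 and Id3 are high in the Tagln cluster, Slit3 GL-like, CL-like and Cx-like cells, and Id2 in Cx-like and Med-like cells. Col4a3 ORS-like cells are low in each, with the orange point to the right of the blue one.

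Bmp2 and Bmp4, summed here as ligand, and Id mRNA did not follow one order over the groups. The Shh cluster had the most Bmp2 and Bmp4, with a sum of 314 and 363 CPM, and a sum of the Id genes of 389 and 530 CPM. Med-like cells, with 239 and 270 CPM of ligand, were high in both, at 765 and 808 CPM of Id mRNA. In the Tagln cluster the sum of both ligands was 2.09 and 12.6 CPM and that of the Id genes 934 and 895 CPM. Cx-like cells combined 97.4 and 107 CPM of ligand with 984 and 983 CPM of Id mRNA. Col4a3 ORS-like cells were low in either, with 10.1 and 11.5 CPM against 66.4 and 128 CPM. With Bmp7 and Bmp8a added, the ligand sum was 412 and 476 CPM in the Shh cluster and 236 and 241 CPM in Cx-like cells. It was 54.4 and 79.8 CPM in Col4a3 ORS-like cells and 35.2 and 51.2 CPM in the Tagln cluster. Over the 15 groups, on the log2(CPM + 1) scale, Pearson's r between the summed ligands and the summed Id genes was 0.13 and 0.36. Between the summed ligands and Bambi it was 0.73 and 0.82, and between Bmp2 and Bmp4 0.84 in both libraries. Bmp4 and Msx1, a homeobox gene known as a BMP target in the hair shaft lineage, had r of 0.85 and 0.89.

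**Figure D4:**
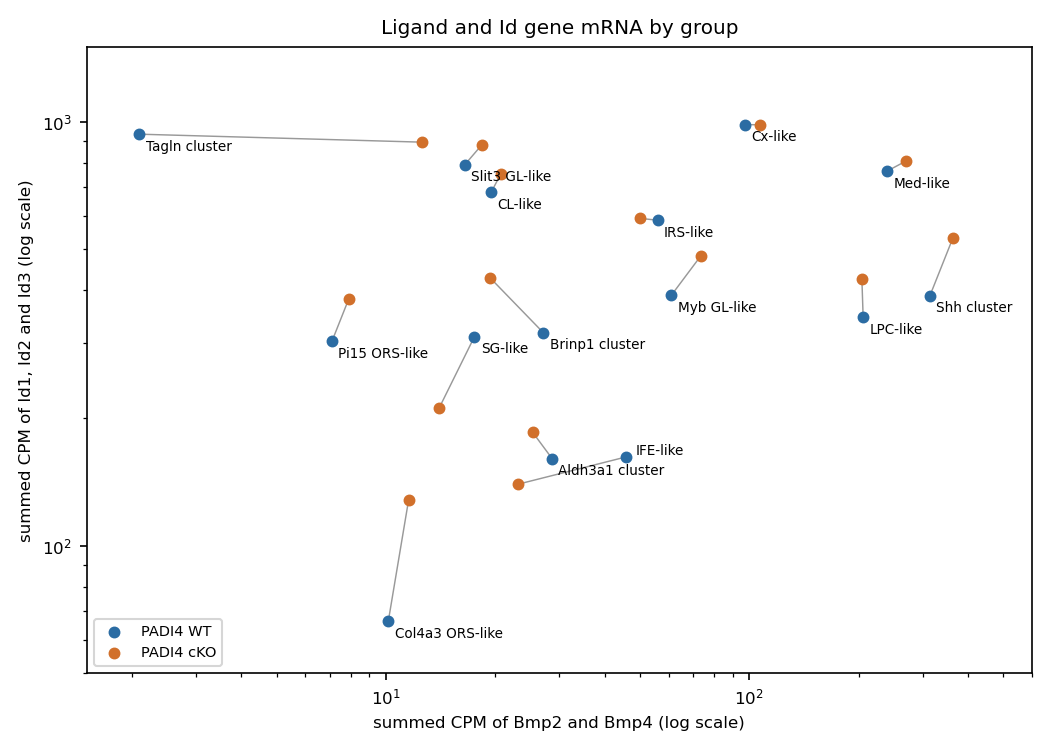
Summed CPM of Bmp2 and Bmp4 (horizontal, log scale) against summed CPM of Id1, Id2 and Id3 (vertical, log scale), with 1 point per group and library, lines joining the libraries of a group and labels at the PADI4 WT point. The Shh cluster lies far right at 389 and 530 CPM of Id mRNA, the Tagln cluster far left at 934 and 895 CPM, and Col4a3 ORS-like cells at the bottom left.

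Within a group, cells with a UMI of Bmp2 or Bmp4 were set beside cells with none. In LPC-like cells the positive cells had less Id3, 178 against 292 CPM in the PADI4 WT library and 231 against 337 CPM in the other, and less Id1, with log2 ratios of −0.57 and −0.19, while Id2 was at 0.25 and 0.44. Their Bmp7 was higher by a log2 ratio of 0.61 in both libraries. In the Aldh3a1 cluster Id1 and Id3 went the opposite way, with log2 ratios of 0.43 and 0.39 for Id1 and 0.50 and 0.91 for Id3, and Id2 was higher as in LPC-like cells, by 0.74 and 1.01. Bambi was higher in the positive cells of IRS-like (1.02 and 1.01) and Myb GL-like cells (0.74 and 0.99). Positive cells of the Aldh3a1 cluster had median UMI counts of 16092 and 16462 against 11538 and 11495, those of LPC-like cells 20024 and 21123 against 18758 and 19016, and the part of depth was not tested.

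Each group was also set against all other epithelial cells of its library. This is a description, as the groups were made from the same cells, and Bmp8a had too few UMIs for it. In Med-like cells 5 of the 9 members were more than 2-fold higher in both libraries (Bmp2, Bmp4, Bmper, Bambi and Id2), as were 2.36% of 12090 genes. The same held in LPC-like cells for 3 (Bmp2, Bmp4 and Bmp7, of all genes 1.65%), in Cx-like cells for 3 (Bmper, Bambi and Id2, of all genes 3.69%) and in the Shh cluster for 2 (Bmp2 and Bmp4, of all genes 1.4%). Slit3 GL-like cells (1.51% of all genes) and the Tagln cluster (5.73%) were more than 2-fold higher in Id3, and CL-like cells (4.86%) in Bmper. Members more than 2-fold lower in both libraries were most numerous in Col4a3 ORS-like cells, 7 of 9, all but Bmp7 and Bmpr1a (of all genes 6.66%). There were 6 in Pi15 ORS-like cells (5.96%), the Aldh3a1 cluster (6.34%), IFE-like (6.51%) and SG-like cells (17.9%), 5 in the Brinp1 cluster (4.49%) and 4 in the Tagln cluster (7.25%). Slit3 GL-like (6.24%) and CL-like cells (11.2%) had 3 lower, and LPC-like (5.95%), Myb GL-like (13.0%) and IRS-like cells (13.3%) had 2, with no member higher in Myb GL-like and IRS-like cells.

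Cells were also divided by Mki67 and Top2a, transcripts of cycling cells, into those with at least 2 UMIs of both together and those with none. Bmper was lower in the cycling cells of Med-like (91.4 against 188 CPM and 70.7 against 203 CPM) and Cx-like cells (69.6 against 153 CPM and 57.3 against 135 CPM). Bambi was lower in those of Med-like cells, with log2 ratios of −0.85 and −0.92, and Id1 by −0.47 and −0.55. In outer root sheath groups Id3 went the other way, with log2 ratios of 1.02 and 0.80 in Pi15 ORS-like and 1.76 and 1.62 in Col4a3 ORS-like cells, as it did in the Aldh3a1 cluster with 1.07 and 1.27. There Bmp4 was also higher in cycling cells, at 29.5 against 11.2 CPM and 33.0 against 9.92 CPM. Cycling cells were deeper, for example with median UMI counts of 18908 against 13591 in Med-like cells of the PADI4 WT library and 16506 against 8084 in Col4a3 ORS-like cells.

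The comparison of the libraries asked whether BMP genes differed where Padi4 had been deleted by label. Over all epithelial cells, Id1 stood at 139 and 165 CPM (log2 ratio 0.24), Id3 at 240 and 280 CPM (0.22) and Bmp4 at 48.7 and 57.3 CPM (0.23). Bmper was lower in the library labelled PADI4 cKO, at 18.9 and 15.7 CPM (−0.27), and Bmpr1a nearly level (0.03). Within groups, 113 pairs of a member and a group had at least 100 UMIs. Of these, 7 had a log2 ratio above 0.5, against 2.29% of 136053 pairs over all genes, and 8 a ratio below −0.5, against 2.99%. The median ratio over all genes of a group lay between −0.04 and 0.04.

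The largest positive ratios were in Col4a3 ORS-like cells. There Id1 was 22.3 CPM (187 UMIs) and 53.0 CPM (477 UMIs), a log2 ratio of 1.24 (1.00 to 1.5). For Id3 the ratio was 0.91 (0.70 to 1.12) and for Bmp7, at 43.9 and 67.9 CPM, 0.63 (0.44 to 0.82). In this group 2.22% of all genes lay above 0.5. Dissociation response genes such as Fos, Jun and Egr1, a list of 10, summed to 2934 and 3829 CPM in the same cells, a log2 ratio of 0.38, and their part in the Id values was not tested. Fibroblast markers were highest in this group, at 17.9 and 23.1 CPM for a list of 5, as were Merkel cell markers, at 39.8 and 34.1 CPM for a list of 4, and their part was not tested either. Sex was not balanced either. Set against only those PADI4 WT cells with Xist and no Y-linked UMIs, the ratios were 0.86 for Id1, 1.1 for Id3 and 0.44 for Bmp7, so Bmp7 no longer passed 0.5, and against the Y-linked cells they were 1.63, 1.16 and 0.76.

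Id genes were above 0.5 in 3 more groups. Id2 in the Brinp1 cluster was 15.4 and 27.4 CPM (0.83), Id1 in the Shh cluster 133 and 197 CPM (0.56), and Id3 in Pi15 ORS-like cells 153 and 217 CPM (0.50). Of all genes, 2.48%, 1.1% and 1.01% were above 0.5 in these groups. In the Brinp1 cluster 8 of the 10 dissociation response genes were above 0.5 as well, with a summed log2 ratio of 0.54, and their part was not tested. Thinned to 2000 UMIs per cell, the ratio of Id1 in the Shh cluster was 0.36, and among cells with Xist UMIs alone that of Id3 in Pi15 ORS-like cells was 0.34. Id1 was higher in the library labelled PADI4 cKO in 13 of 15 groups, Id3 in 10 of 15 and Id2 in 9 of 15. The interval for counting error lay above 0 in 11 groups for Id1, 9 for Id3 and 6 for Id2. It lay below 0 in 2, 1 and 1, and signs were not counted for all genes. The exceptions in sign were led by SG-like cells, where Id3 was 72.1 and 31 CPM (70 and 31 UMIs, −1.21). They included IFE-like cells, where Id2 rested on 98 and 8 UMIs (−0.95) and its interval held 0. Below −0.5 were 3.56% of all genes in the former and 10.7% in the latter.

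Among ligands, Bmp4 passed 0.5 in neither direction in any of 11 groups, with ratios from −0.30 to 0.30. Bmp7 was higher in the library labelled PADI4 cKO in 14 of 14 groups, by 0.06 to 0.63, with a median of 0.15. Its interval for counting error lay above 0 in 4 of these groups and below 0 in 0. Such counts of signs were not made for all genes. Bmp2 was near level where it was high (−0.02 in LPC-like, 0.19 in Med-like and 0.19 in Shh cluster cells). It was lower in the Brinp1 cluster, at 11.7 and 6.92 CPM (−0.76, −1.12 to −0.40), where 3.02% of all genes were below −0.5. Among cells with Xist and no Y-linked UMIs, a setting that keeps the Brinp1 cluster, no compared pair of a member and a group was below −0.5. In IFE-like cells, of which there were 395 and 73, Bmp2 was 38.0 and 12.7 CPM (−1.52, −2.61 to −0.71) on 197 and 11 UMIs. Of all genes, 10.7% were below −0.5 in IFE-like cells. The peeling of the epidermis before the sort can set how many such cells remain, and its part in these values was not tested. Bmp8a in Cx-like cells was lower (−0.57, −1.03 to −0.13), with 1.56% of all genes below −0.5 there.

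Bmper was the member with the most ratios below −0.5, in 3 of 7 groups, namely CL-like (−0.77, −1.14 to −0.41), Tagln cluster (−0.58) and Slit3 GL-like cells (−0.55). Of all genes, 6.21%, 2.15% and 1.97% were below −0.5 in these groups. In the Med-like and Cx-like cells that hold most of it, it was lower by less, with −0.26 and −0.13. The CL-like value rests on 185 and 96 UMIs from 101 and 96 cells. In Slit3 GL-like cells the ratio turned to 0.17 among cells with Xist UMIs alone. Bambi was lower in Med-like cells (−0.31) and higher in the Aldh3a1 cluster (0.55, 0.01 to 1.12, on 50 and 67 UMIs, with 2.73% of all genes above 0.5), and Bmpr1a lay between −0.05 and 0.21 in all 15 groups.

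The PADI4 WT library by itself gave a measure of how far members move without the label. Its cells with Y-linked UMIs alone and those with Xist UMIs alone come from different animals. Over 81 pairs of a member and a group the log2 ratio was above 0.5 in 3 and below −0.5 in 3. The share over all genes was not computed for this split, so the counts cannot set the members apart from other genes. Bmp2 was higher in the Y-linked cells of LPC-like (0.51), Myb GL-like (0.58) and IRS-like cells (0.86). Id1 was lower in those of LPC-like (−0.55) and Col4a3 ORS-like cells (−0.78), and Id2 in those of the Shh cluster (−0.64). In LPC-like cells, Id1 and Id3 of the library labelled PADI4 cKO were at −0.04 and 0.09 relative to the Xist cells of the PADI4 WT library, and at 0.49 and 0.48 relative to its Y-linked cells.

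**Figure D5:**
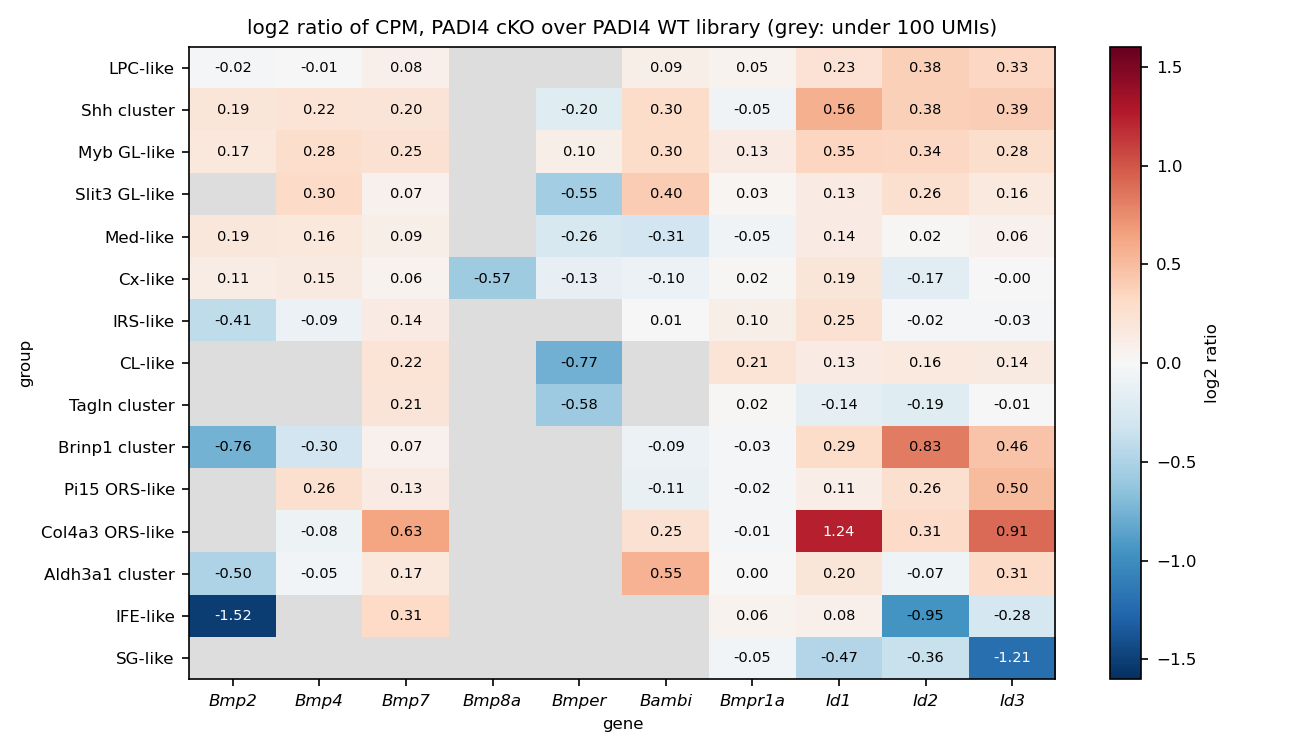
Log2 ratio of CPM, library labelled PADI4 cKO over PADI4 WT, for each member (columns) in each of the 15 groups (vertical axis), with red for higher and blue for lower and grey where a pair had under 100 UMIs. The Id columns are mostly red, most so for Id1 (1.24) and Id3 (0.91) in Col4a3 ORS-like cells, Bmper is mostly blue, and Bmpr1a is close to 0 in each group.

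Of 57 other BMP pathway genes, 38 had at least 100 UMIs in some group. Over 443 pairs of such a gene and a group, 10 were above 0.5 (2.26%, against 2.29% of the pairs over all genes) and 23 below −0.5 (5.19%, against 2.99%). Fst, a secreted inhibitor of activins and BMPs, was below −0.5 in 8 of 12 groups and above 0.5 in 1 (0.55), with a median log2 ratio of −0.63. Bmpr1b, a type I receptor, and Tll1, a protease that cleaves the BMP inhibitor chordin, were each below in 3 of 9. Bmpr1b was also above 0.5 in 1 group (0.96). Sostdc1, a BMP and WNT inhibitor made by hair follicles, had the lowest single ratio, −3.32 in CL-like cells. It was below −0.5 in 2 of 15 groups and above 0.5 in 1 (0.81). The other receptors compared passed 0.5 in no group, with Bmpr2 between −0.31 and 0.10, Acvr1 between −0.35 and 0.30, Acvr2a between −0.43 and 0.39 and Acvr2b between −0.39 and 0.15. Smad5 (−0.35 to 0.01) and Smad4 (−0.26 to 0.03) did not either. Smad1 ran from −0.33 to 0.63, above 0.5 in IFE-like cells alone, and Smad9 from −0.02 to 0.53, above it in LPC-like cells alone, on 36 and 72 UMIs. The classical antagonists were scarce in these epithelial cells, with 111 UMIs of Nog, 35 of Chrd and 10 of Grem1 in both libraries together. Further targets had their peaks, by the mean of both libraries, in different groups. In the hair shaft, Msx1 stood at 381 and 450 CPM and Msx2 at 310 and 291 CPM in Med-like cells, and Hoxc13 at 724 and 694 CPM and Dlx3 at 218 and 227 CPM in Cx-like cells. Outside it, Gata3, a transcription factor of the inner root sheath, peaked in IRS-like cells at 598 and 597 CPM, Foxn1 in CL-like cells at 112 and 124 CPM, Atoh8 in the Tagln cluster at 21.1 and 14.3 CPM and Id4 in Col4a3 ORS-like cells at 377 and 296 CPM.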

How the data were processed

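The authors deposited, for every droplet barcode and without a droplet filter, the UMI counts of each gene, made with Cell Ranger (version 7.1.0 and build mm10 in the submitters' processing notes) from Chromium 3′ v3.1 reads. Whether intronic reads were counted is not given in the sources used here. CellBender and Harmony, which the study used, were not run. A droplet was kept as a cell if it held 1000 to 8000 genes and 2000 to 60000 UMIs, if no more than 1% of the UMIs were of hemoglobin and 20% of mitochondrial genes, and if its ribosomal share fell between the 5th and the 99th percentile, which left 8070 and 7393 cells. They were scaled to 10000 UMIs, log-transformed and clustered with Scanpy 1.11.5 (1000 variable genes without BMP pathway, cell cycle, Padi and sex-linked genes, 50 principal components, 15 neighbors, Leiden resolution 1.0). To be named, a cluster had to raise 3 or more markers of a list (to 5 CPM and 1.5 times the level of the remaining cells), more of them than of any other list, with no other list ahead among its 10 leading genes. A fibroblast-like (50 and 26 cells) and a melanocyte-like cluster (26 and 10 cells) were left out. Doublets scored with Scrublet (289 and 318 cells above 0.221) were kept. Its automatic threshold for the PADI4 WT library called 1 cell, and the threshold from the second library was applied to each.

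UMIs were summed per library and group. Log2 ratios have 0.5 UMI added to each sum, need 100 UMIs over both libraries and carry exact conditional binomial intervals, and a ratio past 0.5 is called. The method was tested on simulated data with known changes. Levels carry exact Poisson and shares Clopper-Pearson intervals. Free RNA was bounded from non-epithelial genes in droplets with fewer than 100 UMIs. It made up at most 7.85% and 6.73% of the UMIs of all epithelial cells of a library, and no bound was made per group. Gene positions come from GENCODE, which held 32158 of the 32285 gene IDs. In the last 500 bases of the members, no stretch of 31 bases was shared with another gene except in Bmp4 (2.83% of stretches). Named genes are all members, pathway genes past 0.5 in at least 3 groups in one direction or at 20 CPM or more in some group, and the 3 genes most like each member over the groups. The members and lists were chosen with earlier results of these data known.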

Additional observations from a re-analysis of the deposited data

Results flagged for a closer look

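Some members went opposite ways in different groups when the library labelled PADI4 cKO was set against PADI4 WT. The difference between groups was not tested, as each group holds 1 library per genotype. Bmp2 had a log2 ratio of 0.19 in the Shh cluster and −1.52 in IFE-like cells. Bmp4 was at 0.28 in Myb GL-like cells and −0.30 in the Brinp1 cluster, and Bambi at 0.55 in the Aldh3a1 cluster and −0.31 in Med-like cells. Id1 was at 1.24 in Col4a3 ORS-like and −0.47 in SG-like cells, and Id3 at 0.91 and −1.21 in the same groups. Id2 was at 0.83 in the Brinp1 cluster and −0.17 in Cx-like cells.

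High levels also occurred in groups below the minimum of 50 cells per library, which entered no comparison. Bmp7 reached 223 and 216 CPM in an upper hair follicle-like group of 37 and 55 cells, and Bmp8a 165 and 281 CPM in the Crym-led inner root sheath-like group of 14 and 7 cells.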

How the results depend on the processing

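No paired analysis was possible because each genotype has 1 library. The 7 pairs of a member and a group above 0.5 became 5 to 10 under the other settings applied to the 15 groups. The 8 pairs below −0.5, of 113 compared, became 4 of 81 at Leiden resolution 0.5, which leaves 10 groups. They became 0 of 65 with cells thinned to 2000 UMIs. Among cells with Xist and no Y-linked UMIs (12 groups, without CL-like, IFE-like and SG-like cells) they became 0 of 88. With the PADI4 WT cells restricted to those with Y-linked and no Xist UMIs, 4 of 103 were below. At a minimum of 500 UMIs, 0 of 80 were below, and where groups needed 100 cells in each library, 4 of 97. The last setting was chosen after the data had been seen, as was the doublet threshold. Bmper in Slit3 GL-like cells turned from −0.55 to 0.17 among cells with Xist UMIs alone. Of the 10 members, 4 kept their highest group at 4000 UMIs per cell or more, 4 at resolution 0.5 and 5 with BMP genes kept for clustering. At resolution 0.5 the Shh cluster and CL-like cells were not among the groups, so Bmp2, Bmp4 and Bmpr1a could not keep theirs. The cause of the other changes was not tested. With a marker gate per cell, 6722 cells were gated, 5465 cells lay within 1 marker of the gate and 4 classes (GL, IRS, LPC and ORS) could be compared. In classes of merged clusters, 3 of 100 pairs were above 0.5 and 7 below −0.5. The gate gave 0 above and 2 below of 31 pairs, and 1 member, Bmp7 in LPC, with the same highest class. The other members were highest in the Shh cluster, the Tagln cluster, Cx or CL. The gate could not compare these classes, so those members could not match. At 50 UMIs, 18 pairs of other pathway genes were above 0.5 instead of 10. Shares over all genes are not given for these settings, so these counts cannot set the members or pathway genes apart from other genes. Depth limits Bmp8a to 1 comparable group, and intervals leave out the spread between animals.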

Other observations

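For each member, the genes with the most similar order of levels over the 15 groups were sought among 12090 genes, as a description over groups that share libraries and depth. Bmp2 was most like Wnt3 (Pearson's r 0.94 and 0.93), Slc40a1 (0.91 and 0.95) and Wnt10b (0.90 in both). Wnt3 and Wnt10b are WNT ligands of the hair bulb, and Slc40a1 encodes the iron exporter ferroportin. Bmp4 was most like Pcdh19, a protocadherin, Tnfrsf19, a receptor of the tumor necrosis factor family, and Bach2, a transcription factor, with r of 0.92 to 0.94.

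Id1 was most like Id3 (0.85 and 0.84), followed by Manf and Ror2. Manf, a factor of the stress response in the endoplasmic reticulum, was also near Id3 (0.93 and 0.87), beside Cfl1 (0.91 and 0.94) and Cnn3 (0.89 and 0.87), which encode the actin-binding proteins cofilin and calponin 3. Bmp7 was most like Asprv1, Tfap2c and Rnf43, with r of 0.83 to 0.88. The genes nearest to Bmpr1a had lower values, with Hsbp1 at 0.82 and 0.81. Bmper was nearest to Them4, Atp6v1g1 and S100a3 (0.80 to 0.86), Bmp8a to Fap, G6pdx and Supt4a (0.84 to 0.95), Bambi to Gmcl1, Atad2b and Rexo2 (0.93 to 0.96) and Id2 to Kctd6, Taco1 and Snrnp27 (0.88 to 0.92).

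Among the other pathway genes, the inhibitors Fst and Sostdc1 and the receptor gene Bmpr1b peaked in the epidermis-like group, which held 395 and 73 cells. Fst was highest in IFE-like cells, at 797 and 1163 CPM, as were Sostdc1, at 646 and 823 CPM, and Bmpr1b, at 376 and 178 CPM. Tll1 was highest in Col4a3 ORS-like cells, at 323 and 287 CPM, and so was Id4, a further member of the Id family.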
